A study of Mus musculus with 8 samples.

Results

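The 3 Brinp genes, Brinp1, Brinp2 and Brinp3, were followed in nuclear RNA of cortical GABAergic neurons, the inhibitory neurons of the cortex, in juvenile hypothyroid mice with and without a late dose of thyroid hormone. They are 3 of the 55341 gene symbols in each count file, and all 3 were among the 17355 genes that passed the filter on low counts. The rows were taken by symbol, but the family itself was chosen from results of this same comparison, so the differences between the groups are given below as a description, with no p-value, and support nothing further. The PTU group (mice 9 to 12, n = 4) was made hypothyroid with propylthiouracil, a drug that blocks the synthesis of thyroid hormone, which their mothers received during pregnancy. Mice 13 to 16 (PTU+TH group, n = 4) shared that treatment and were injected with thyroid hormone (TH) in the peritoneum 24 h before the brain was collected. Mice of both groups carried a reporter of a nuclear fluorescent protein that Cre recombinase switched on in GABAergic neurons, and each library came from the sorted nuclei of 1 cortex. The labels name neither the Cre driver nor the age in days, sex or litter of the mice. There was no group with normal thyroid function, so every level is that of a hypothyroid animal or of a hypothyroid animal a day after TH.

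BRINP proteins (BMP and retinoic acid inducible neural-specific proteins) are a small vertebrate family found mostly in neurons of the central and peripheral nervous system. They carry a membrane attack complex and perforin (MACPF) domain, which they share with the astrotactins, perforin and the terminal complement components. The family was named for its induction by bone morphogenetic protein (BMP) and retinoic acid in neural cells, and forced expression of its members slows entry of cells into the S phase of the cell cycle. Mice that lack Brinp1 show altered activity and social behaviour.

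The genes differ in length far more than their proteins do. Brinp1 (ENSMUSG00000028351.5) lies on chromosome 4 from 68761514 to 68954397 on the minus strand of GRCm38, a gene body of 192.9 kb. Brinp2 (ENSMUSG00000004031.13) lies on chromosome 1 from 158245269 to 158356326 on the minus strand and spans 111.1 kb. Brinp3 (ENSMUSG00000035131.14) lies on chromosome 1 from 146494760 to 146902472 on the plus strand and spans 407.7 kb. In each gene the principal transcript has 8 exons, and it encodes 760 codons in Brinp1, 783 in Brinp2 and 766 in Brinp3. All exons of a gene merged cover 3.2% of the body of Brinp1, 7.89% of Brinp2 and 1.72% of Brinp3, and the longest intron measured 63.3 kb, 59.7 kb and 167.6 kb respectively. The rest of each body is intron, which nuclear RNA contains in unspliced transcripts.

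**Figure D1:**
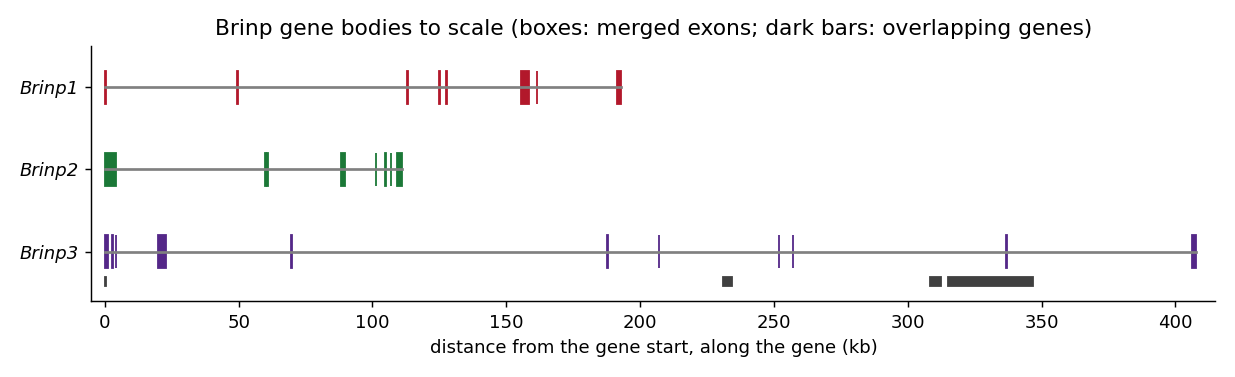
Gene bodies of Brinp1, Brinp2 and Brinp3 drawn to the same scale against distance from the gene start in kb, with merged exons as boxes and genes that overlap the body as dark bars. Brinp3 (407.7 kb) is the longest and the only member with overlapping genes, and each body is almost all intron.

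The coding sequences are related but not close copies. Over aligned bases, Brinp2 and Brinp3 were 71.7% identical, Brinp1 and Brinp2 63.8%, and Brinp1 and Brinp3 62.0%. The longest stretch shared without a mismatch between 2 principal transcripts was 28 bases, between Brinp2 and Brinp3. No other gene overlapped Brinp1 or Brinp2, while 4 genes overlapped Brinp3 and left 90.2% of its body free. Among those 4, Gm15583, A230059L01Rik and Gm15584 lie inside Brinp3 and were listed at 0 in all 8 libraries. In these files 1329 of 1333 protein-coding genes whose every base lies in another gene (99.7%) were at 0, so a 0 of an enclosed gene is not read as absence.

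The sequence before the start site is shown for Brinp1, the member with the largest difference, and for Brinp3, the member with the smallest. The sequences are RefSeq's on GRCm38.p6, printed 5′ to 3′ on the strand of the gene, with GC boxes in capitals, and bases inside annotated exons were left out. The table held 1 start site of Brinp1 and 3 of Brinp3, so 2 of the 3 members were matched. The Brinp3 sequence precedes the start at 146497687, inside the annotated gene, which belongs to other transcripts and not to the principal one, since the windows before the other starts lie in an annotated exon.
Brinp1, chr4:68954398-68954647, minus strand: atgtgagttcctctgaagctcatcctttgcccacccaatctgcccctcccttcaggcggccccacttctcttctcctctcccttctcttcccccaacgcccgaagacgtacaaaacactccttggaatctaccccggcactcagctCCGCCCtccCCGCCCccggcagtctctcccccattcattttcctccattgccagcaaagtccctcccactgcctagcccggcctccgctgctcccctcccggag
Brinp3, chr1:146497437-146497613, plus strand: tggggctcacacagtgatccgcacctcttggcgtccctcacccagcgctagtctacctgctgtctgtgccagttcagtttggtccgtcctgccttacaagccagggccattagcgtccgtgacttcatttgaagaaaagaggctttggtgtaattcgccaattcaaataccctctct

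The 250 bases before each start site were searched on both strands for AGGTCA, the half-site that thyroid hormone and retinoic acid receptors bind, for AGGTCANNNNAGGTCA, its direct repeat with 4 bases between, which contains the half-site, for the GC box GGGCGG and for the TATA box TATAAA. The Brinp1 window held 2 GC boxes, both on the opposite strand, beginning 104 and 95 bases before the start site, and its GC content was 62.0%. Neither AGGTCA form nor a TATA box was found in it, and the windows of the 3 Brinp3 starts held none of the 4 motifs, with a GC content of 44.8% to 52.8%. Among all 32851 promoter windows of the table, 32.7% held a GC box, 14.0% the half-site, 12.4% the TATA box and 0.0152% the direct repeat, and the median GC content was 52.4%.

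Library totals ran from 21762810 to 29084071 counts. The sort markers were present in every library, with Gad1 at 471 ± 51.7 CPM (counts scaled to the size of the library) in PTU and 422 ± 22.3 CPM in PTU+TH and Gad2 at 427 ± 25.9 and 458 ± 24.3 CPM (SD, n = 4 per group). The excitatory marker Slc17a7 averaged 35.2 CPM in PTU, against 38.5 CPM in PTU+TH. PTU+TH mice 15 and 16 had no counts of 4 genes on the Y chromosome (Ddx3y, Uty, Kdm5d, Eif2s3y), which together gave between 7960 and 11548 counts in each of the other 6 libraries. The labels do not say that replicates came from separate litters, so p-values measure the spread between these mice and their preparation.

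Brinp1 was higher in every TH-injected mouse than in any mouse left hypothyroid, by 2.16-fold on average. Its counts were 4102, 3928, 3176 and 3022 in PTU mice 9 to 12, and 7019, 8583, 7334 and 7252 in PTU+TH mice 13 to 16. Scaled by library, Brinp1 stood at 149, 148, 157 and 132 CPM in the PTU mice, and at 296, 295, 333 and 345 CPM in the PTU+TH mice. The groups were far apart, since the lowest PTU+TH library was 0.91 log2 units above the highest PTU library, and both groups were tight, with a coefficient of variation of 7.14% in PTU and 8.09% in PTU+TH. The means were 147 ± 10.5 and 317 ± 25.7 CPM (SD, n = 4 per group), a log2 fold change of 1.11 (SE 0.10). Mice 15 and 16, which lacked Y-linked counts, were the highest of the PTU+TH group, and with the 6 other libraries alone the log2 fold change was 1.01 (SE 0.11).

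Brinp2 was higher by a smaller step. It stood at 141, 147, 163 and 138 CPM in the PTU mice, and at 185, 189, 182 and 206 CPM in PTU+TH. The 4 PTU+TH libraries all lay above the 4 PTU libraries, but the nearest libraries of the groups were only 0.16 log2 units apart. The means were 147 ± 11.1 and 191 ± 10.8 CPM (SD, n = 4 per group), with a log2 fold change of 0.37 (SE 0.09), or 1.30-fold. In PTU, Brinp1 and Brinp2 gave almost the same number of counts, with a Brinp1 to Brinp2 ratio between 0.961 and 1.06. In PTU+TH that ratio lay between 1.56 and 1.83.

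Brinp3 had the most counts of the family in PTU and the widest spread. It stood at 234, 273, 336 and 332 CPM in the PTU mice, and at 288, 318, 329 and 401 CPM in PTU+TH. The groups overlapped, and PTU mice 11 and 12 were above 3 of the 4 PTU+TH libraries. The means were 294 ± 49.0 and 334 ± 47.9 CPM (SD, n = 4 per group), with a log2 fold change of 0.18 (SE 0.14). The log2 fold change was 0.05 in the 6 libraries with Y-linked counts, 0.08 without PTU+TH mouse 16 and 0.09 without PTU mouse 9.

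**Figure D2:**
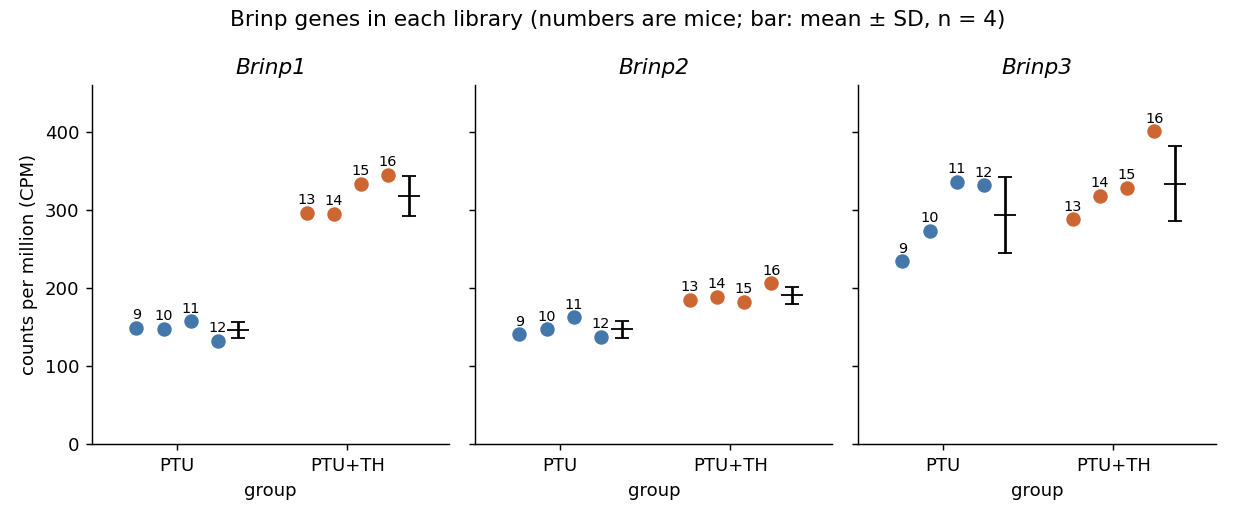
CPM of Brinp1, Brinp2 and Brinp3 in each library, by group, with points numbered by mouse and bars for mean ± SD (n = 4). Brinp1 lies between 132 and 157 CPM in PTU and between 295 and 345 CPM in PTU+TH, Brinp2 separates by a narrow gap, and Brinp3 overlaps between the groups.

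Over all 17355 genes, 368 (2.12%) were called at an adjusted p under 0.05 (edgeR quasi-likelihood test, Benjamini-Hochberg), 258 (1.49%) higher and 110 (0.634%) lower in PTU+TH, and in 1512 genes (8.71%) the libraries of the groups did not overlap. By the same rule 1 of the 3 Brinp genes was called, Brinp1, while Brinp2 and Brinp3 were not, and Brinp2 was on the other side of the threshold in 6 of 19 alternative fits. The groups did not overlap in Brinp1 and Brinp2. Because the family was chosen from this contrast, nothing is read from these counts. Since whole sorted samples were measured, more cells that express a gene and more of its RNA per cell cannot be told apart.

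The division of counts inside the family does not depend on how libraries are scaled, because it is taken within a library. Brinp1 held 21.98% to 28.5% of the Brinp counts in PTU and 36.2% to 39.5% in PTU+TH. Brinp3 held 44.6% to 55.1% in PTU and 37.4% to 42.1% in PTU+TH. These ranges did not overlap for either gene, and a lower share of Brinp3 is not a lower level, since its mean CPM was no lower in PTU+TH. The share of Brinp2 overlapped between the groups, at 22.9% to 26.9% and 21.6% to 24.1%. The ratio of Brinp1 to Brinp3 counts was 0.511 ± 0.103 in PTU and 0.958 ± 0.0782 in PTU+TH (SD, n = 4 per group), so the 2 genes gave nearly equal counts after TH. The 3 genes together summed to between 524.5 and 656.0 CPM in PTU and between 768.9 and 952.2 CPM in PTU+TH.

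**Figure D3:**
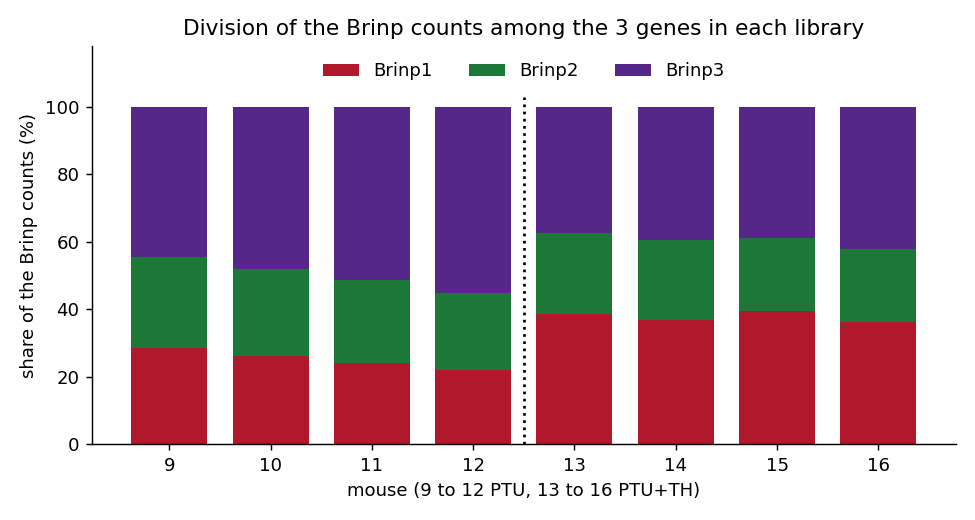
Share of the summed Brinp counts (percent) that fell on each gene in each library, PTU to the left of the dotted line and PTU+TH to the right. The Brinp1 share is between 21.98% and 28.5% in PTU and between 36.2% and 39.5% in PTU+TH, while the Brinp3 share is lower in PTU+TH, where its mean CPM was not lower.

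Levels can be compared between the genes only per length, and the order then depends on which length is used. Per kb of gene body, Brinp2 was highest, with 1.32 ± 0.10 CPM per kb in PTU and 1.72 ± 0.0973 in PTU+TH (SD, n = 4 per group). Brinp1 was at 0.760 ± 0.0543 and 1.65 ± 0.133 CPM per kb of body, and Brinp3 at 0.720 ± 0.120 and 0.818 ± 0.118 (SD, n = 4 per group). In PTU the levels of Brinp1 and Brinp3 per kb of body overlapped, and in PTU+TH those of Brinp1 and Brinp2 did. Per kb of merged exons Brinp2 was instead the lowest in both groups, with 16.8 CPM per kb in PTU and 21.7 in PTU+TH. On that scale Brinp3 was highest in PTU, at 41.9 against 23.7 for Brinp1, and in PTU+TH the levels of Brinp3 (47.7) and Brinp1 (51.3) overlapped between libraries. Over the 8 libraries Brinp3 was at percentile 45.9 of 13960 tested protein-coding genes per kb of body and at percentile 96.1 per kb of exon. The sources used here do not state whether reads in introns were counted. Of protein-coding genes with no base free of other genes, 99.7% were at 0, against 21.5% of those with all bases free. Counting over whole gene bodies would leave such zeros, and the order per kb of exons holds only if exons alone were counted. The counting rule was not tested.

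The weight of long genes varied from mouse to mouse, and the groups overlapped in it. Genes with a body of 100 kb or more (2885 genes) took 37.4%, 40.5%, 48.9% and 46.6% of the counts in PTU mice 9 to 12 and 42.3%, 42.5%, 45.5% and 48.5% in PTU+TH mice 13 to 16. Mouse 9 had the lowest share of long genes and mouse 11 the highest, both in PTU. The group means were 43.3% ± 5.31 and 44.7% ± 2.92 (SD, n = 4 per group), a difference of 1.34 percentage points (exact permutation test, two-sided, p = 0.629, smallest possible 0.0286). Without PTU mouse 9 the difference turned to -0.649 points. By class of gene body, the median log2 fold change was 0.01 under 10 kb (4894 genes), -0.02 from 10 to 30 kb (5052), -0.02 from 30 to 100 kb (4804), 0.0038 from 100 to 300 kb (2004) and 0.02 from 300 kb (601).

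Brinp1 stood high among genes of its own length, which the choice of the family from this contrast made likely. It ranked 29th by log2 fold change among the 2004 tested genes of 100 to 300 kb, of which 65 (3.24%) were called higher and 23 (1.15%) lower. Of the 28 genes with a larger rise, 18 were called. Brinp2, in the same class, ranked 210th. Brinp3 ranked 143rd of the 601 tested genes of 300 kb and over, of which 12 (2.00%) were called higher and 2 (0.333%) lower.

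**Figure D4:**
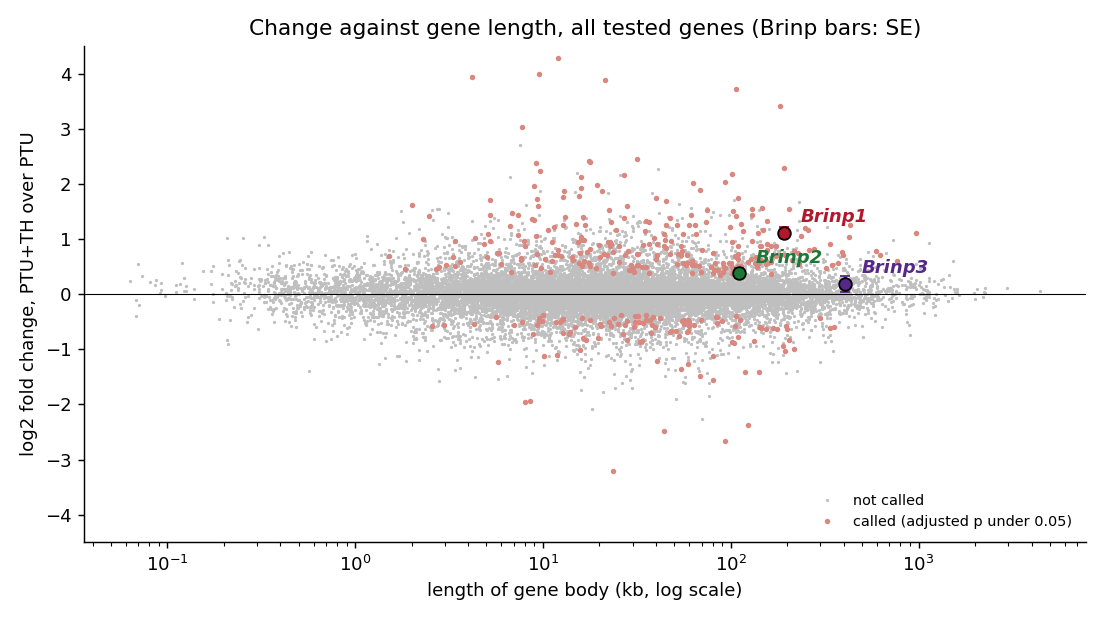
Log2 fold change (PTU+TH over PTU) against length of gene body in kb on a log axis for all 17355 tested genes, with called genes in colour and the Brinp genes marked with their SE. Brinp1 lies above most genes near 193 kb, and Brinp3, at 407.7 kb, lies in the body of the cloud.

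The spread of Brinp3 among mice ran partly alongside that of other very long genes. In PTU mouse 9 its log2 CPM was -0.406 from its mean over the 8 libraries, and the median gene of 300 kb and over was -0.415 from its own. In PTU mouse 10 the 2 values were -0.184 and -0.203, and in PTU+TH mouse 16 they were 0.369 and 0.261. They were 0.096 and 0.194 in PTU mouse 12, lay furthest apart in PTU mouse 11 (0.116 and 0.321), and had opposite signs in PTU+TH mouse 14 (0.034 and -0.097). In PTU+TH mouse 13 both were -0.108, and in mouse 15 they were 0.083 and 0.069. With the class median of each library subtracted, the SD of Brinp3 fell from 0.249 to 0.105 log2 units in PTU and from 0.2 to 0.066 in PTU+TH, and its group difference was 0.13. With the class median of 100 to 300 kb subtracted, the SD of Brinp1 went from 0.105 to 0.205 in PTU and from 0.116 to 0.058 in PTU+TH. Its group difference was 1.097, and the groups still did not overlap. For Brinp2 the difference was 0.36, again without overlap.

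A fit with a length trend removed from each library gave log2 fold changes of 1.07 (SE 0.10) for Brinp1, 0.36 (SE 0.07) for Brinp2 and 0.14 (SE 0.07) for Brinp3. The part that length plays in the level of any single gene was not tested.

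**Figure D5:**
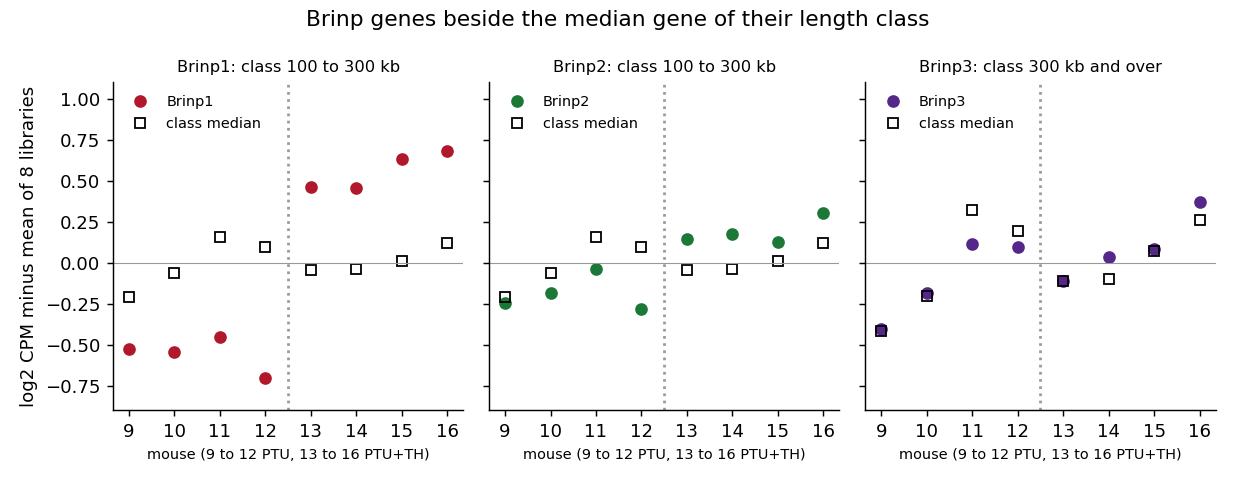
Log2 CPM of each Brinp gene in each library after subtraction of its mean over 8 libraries (filled points), beside the median of the tested genes of its length class treated in the same way (open squares). Brinp3 sits near the squares in some mice (-0.406 and -0.415 in mouse 9) and away from them in others (0.116 and 0.321 in mouse 11), while Brinp1 lies below them in PTU and above them in PTU+TH.

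The mice also fall into sets that earlier results of these data brought up and that the labels do not name, mice 9, 10, 13 and 14 and mice 11, 12, 15 and 16. In the first set Brinp1 averaged 149 CPM in PTU, against 296 CPM in PTU+TH, a log2 difference of 0.99, and in the second 145 and 339 CPM, a difference of 1.23 (2 libraries in each group and set). For Brinp2 the differences were 0.38 and 0.37. For Brinp3 they were 0.26 and 0.12, with 254 and 303 CPM in the first set and 334 and 365 CPM in the second. The PTU+TH libraries of the second set are the 2 without Y-linked counts, and in both groups the second set had the higher share of long genes, as given above. Since the sets came from these data and not from labels, the values by set are a description and no replication.

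The genes around each locus that were tested were not called, and in none of them were the groups separate. Astn1, a MACPF relative that encodes astrotactin, a neuronal adhesion protein of migrating neurons, starts 5.9 kb from the start of Brinp2 on the opposite strand. Astn1 stood at 277 ± 41.4 CPM in PTU, against 266 ± 30.4 CPM in PTU+TH (SD, n = 4 per group), and its log2 fold change was -0.06 (SE 0.13, edgeR adjusted p = 0.922). On the other side of Brinp2, Sec16b, a factor of vesicle export from the endoplasmic reticulum, lies 676.8 kb away and had a log2 fold change of 0.14 (edgeR adjusted p = 0.919). The nearest protein-coding genes to Brinp1 were Tlr4, an innate immune receptor gene 1831 kb away and under 1 CPM in each library, and Cdk5rap2, a centrosome gene 1263 kb away, with a log2 fold change of -0.20 (edgeR adjusted p = 0.578). Next to Brinp3, Pla2g4a, a phospholipase gene, lies 2927 kb away with a log2 fold change of -0.19 (edgeR adjusted p = 0.880), and Rgs18 was below the filter. The antisense gene Gm29514, which shares 0.3 kb with the start of Brinp3, had a log2 fold change of 0.39 (edgeR adjusted p = 0.440), and, with no statement on strand in the sources used here, reads of the overlapping stretch cannot be assigned to either gene.

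The relatives of the family and the pathways that gave it its name were examined as lists. Of 9 listed MACPF relatives, 5 were tested and edgeR called 0, with 1 at an unadjusted p under 0.05 (against 12.8% of all genes), and DESeq2 and limma voom also called 0. Their median log2 fold change was -0.06, beside -0.0066 over all genes. Astn2, which encodes the second astrotactin, stood at 800 ± 235 CPM in PTU, against 798 ± 128 CPM in PTU+TH (SD, n = 4 per group). Its log2 fold change was -0.0030 (edgeR adjusted p = 0.998). The complement gene C9 was listed at 0 in all libraries, and the perforin genes Prf1 and Mpeg1 were below the filter.

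In the retinoic acid list, 1 of 18 tested genes rose and 0 fell, against 1.49% and 0.634% of all genes, and the median log2 fold change was -0.04. At an unadjusted p under 0.05 there were 4 higher and 3 lower, against 12.8% of all genes in either direction, and in 7 of the 18 the groups did not overlap, against 8.71%. The gene that rose was Ncoa1, a steroid receptor coactivator that also serves the thyroid hormone and retinoic acid receptors. Ncoa1 stood at 253 ± 14.3 CPM in PTU, against 369 ± 25.6 CPM in PTU+TH (SD, n = 4 per group), a log2 fold change of 0.55 (SE 0.10, edgeR adjusted p = 0.0139), with no overlap between the groups. Its call was lost without PTU+TH mouse 16 (adjusted p = 0.0547), in the 6 libraries with Y-linked counts (adjusted p = 0.151) and with Y-linked counts as a covariate (adjusted p = 0.101), while its log2 fold change stayed between 0.498 and 0.519 in these fits. Of the receptor genes, none was called by edgeR, and Rara stood at 11.0 and 10.7 CPM and Rarb at 52.0 and 50.9 CPM in the PTU and PTU+TH groups. Rarg had a log2 fold change of -0.09 and Rxra, a shared partner of these receptors, one of -0.41 (SE 0.13, edgeR adjusted p = 0.160) with no overlap between the groups. Rxrg, named after its values were seen, stood at 11.2 ± 0.621 CPM in PTU, against 7.03 ± 1.98 CPM in PTU+TH (SD, n = 4 per group), also without overlap. Its log2 fold change was -0.67 (SE 0.20, edgeR adjusted p = 0.119), and DESeq2 called it lower.

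In the BMP list, edgeR called 0 of 28 tested genes, with 4 at an unadjusted p under 0.05, and DESeq2 and limma voom called 0. Over all genes edgeR called 2.12%, and 12.8% had an unadjusted p under 0.05. The median log2 fold change was 0.11, with 20 genes above 0 and 8 below. Bmp1, which despite its name encodes a metalloprotease and no BMP ligand, stood at 33.5 CPM in PTU, against 34.6 CPM in PTU+TH. The ligand genes Bmp2, Bmp3 and Bmp4 were under 10 CPM on average in each group, and their log2 fold changes were 0.31 (SE 0.22), 1.15 (SE 0.51) and 0.71 (SE 0.43). In the list of genes for entry into S phase, edgeR called 0 of 23 tested genes, with 5 at an unadjusted p under 0.05, against the same shares of all genes. DESeq2 and the length-corrected fit called 1 and limma voom 0, where they called 4.63%, 4.03% and 2.05% of all genes respectively. The median log2 fold change was -0.05. The cyclin gene Ccnd2 stood at 33.5 ± 5.01 CPM in PTU, against 26.8 ± 1.37 CPM in PTU+TH, and its kinase partner Cdk4 at 74.4 ± 10.7 and 69.1 ± 7.66 CPM (SD, n = 4 per group). Ccnd1 and Ccnd3 had log2 fold changes of -0.40 and -0.05. The gene that both called, Cdkn1c, a cyclin kinase inhibitor gene named after its values were seen, averaged 0.557 CPM in PTU, against 1.65 CPM in PTU+TH.

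Some markers of the interneuron classes within the sort differed between the groups, while Pvalb, Sst, Vip and Lamp5, which name these classes, were not called. The lists were chosen with earlier results of these data known, so their counts are a description. Of 7 tested markers of parvalbumin (PV) interneurons 4 rose and 0 fell, against 1.49% and 0.634% of all genes, with the synaptic calcium sensor gene Syt2 at 8.38 ± 2.32 and 18.5 ± 2.40 CPM, Ppargc1a at 121 ± 19.3 and 172 ± 16.6, Kcna1 at 26.8 ± 2.14 and 38.9 ± 5.34 and Nefh at 10.3 ± 0.487 and 17.2 ± 2.88 CPM in PTU and PTU+TH (SD, n = 4 per group). Their list summed to between 361 and 494 CPM in PTU and between 482 and 621 CPM in PTU+TH, which overlap, Pvalb averaged 1.80 and 2.54 CPM, and Cox6a2 was listed at 0. Fitted on the 6 libraries that had Y-linked counts, edgeR called 0 of the 7, with log2 fold changes of 1.15 for Syt2, 0.58 for Nefh, 0.425 for Ppargc1a and 0.378 for Kcna1, against 1.15, 0.73, 0.51 and 0.54 in all 8. Kcna1 and Ppargc1a each lost the call in 8 of 19 alternatives, among them leaving out PTU mouse 10 or 12 or PTU+TH mouse 14, 15 or 16 (for Ppargc1a also 13), and Nefh lost it without mouse 14, 15 or 16. In the somatostatin list 1 of 8 fell (Calb1), in the VIP and CCK list 1 of 7 fell (Htr3a) and in the LAMP5 list 1 of 6 rose (Gabrd), with summed ranges that overlapped between the groups. Gabrd was called in 19 of 19 alternatives and Calb1 in 18, with an adjusted p of 0.103 when only the 6 libraries with Y-linked counts were fitted. Htr3a was called in 11 of 19, and lost the call without PTU mouse 9 or 10 or PTU+TH mouse 14, 15 or 16. DESeq2 also called Ndnf of the LAMP5 list lower. Of the 7 tested pan-GABAergic markers edgeR called 0, with 1 at an unadjusted p under 0.05 and 0 by DESeq2 and limma voom, and they summed to 2358 to 2825 CPM in PTU and 2226 to 2439 CPM in PTU+TH, with Dlx1 and Dlx6 at 0. The excitatory list summed to 244 to 280 CPM in PTU and 242 to 329 CPM in PTU+TH, and the astrocyte list, with Gfap at 0, to 125 to 241 and 127 to 366 CPM, with 0 genes of either called by edgeR, DESeq2 or limma voom and 0 at an unadjusted p under 0.05. Lists for striatal neurons, oligodendrocytes and their precursors, microglia and endothelium held 0 genes called by edgeR or limma voom, 3 at an unadjusted p under 0.05, and 1 called lower by DESeq2 and the length-corrected fit (Penk, a striatal marker). Over all genes, 12.8% had an unadjusted p under 0.05. In either direction, DESeq2 called 4.63% of all genes and the length-corrected fit 4.03%. In PTU and PTU+TH the oligodendrocyte list summed to 96.2 to 123 and 94.2 to 193 CPM (median log2 fold change 0.47, 5 of 6 above 0) and the microglia list, with P2ry12 at 0, to 11.2 to 17.1 and 15.4 to 31.3 CPM (median 0.565, 5 of 6 above 0). The striatal list summed to 63.3 to 102 and 56.9 to 71.1 CPM, the precursor list to 9.19 to 28.3 and 12.2 to 40.4 CPM, and the endothelial list to 33.6 to 152 and 33.6 to 108.5 CPM. A 0 in all libraries for Cox6a2, Dlx1, Dlx6, Gfap or P2ry12 is not read as absence. Genes enclosed in others were mostly at 0, and whether other genes overlap these is not given here. The part of cell composition in the Brinp values was not tested.

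Of 13 listed genes known to be induced by thyroid hormone, 7 rose and 0 fell, against 1.49% and 0.634% of all genes. The list was chosen with earlier results of these data known, so this count is a description and supports nothing further. When only the 6 libraries with Y-linked counts were fitted, 3 of the 7 were called (Hr, Itga7 and Sema7a), and Klf9, Dbp, Cntn2 and Flywch2 were not, with log2 fold changes of 1.23, 1.14, 0.515 and 0.956 there against 1.37, 1.09, 0.50 and 1.06 in all 8 libraries. Hr, the hairless corepressor gene and a direct target of the thyroid hormone receptor, stood at 1.80 ± 0.532 CPM in PTU, against 26.6 ± 1.62 CPM in PTU+TH (SD, n = 4 per group), a log2 fold change of 3.88 (SE 0.20, edgeR adjusted p = 6.59e-07). Klf9, a transcription factor gene that thyroid hormone induces, had a log2 fold change of 1.37 (SE 0.18, edgeR adjusted p = 0.00223), and an adjusted p of 0.058 in those 6 libraries. The log2 fold change of Brinp1, 1.11, lay below those of Hr, Klf9 and Itga7 (1.16) and above those of Dbp, Flywch2, Sema7a and Cntn2.

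The genes whose levels ran most like each Brinp gene over the 8 libraries differed between the members. Each was compared with 11467 genes of at least 5 CPM on average, by Pearson's r of log2 CPM, as a description of libraries that share treatment and depth. For Brinp1 the 5 most alike were Mfap3l (r = 0.997), Zyg11b (0.997), Epb41l2 (0.994), Hr (0.989) and Prkcq (0.988). For Brinp2 they were Trmt2b (r = 0.986), Dab2 (0.979), Zfp961 (0.970), Ephb1 (0.967) and Cntnap1 (0.965). For Brinp3 they were Plcxd3 (r = 0.994), Prickle2 (0.993), Zfp536 (0.987), Spock1 (0.983) and Rab10 (0.983). With group means removed, r with Brinp3 stayed between 0.979 and 0.998 for its 5 genes, and 4 of them have bodies of 200 kb to 487 kb. For the 5 genes most like Brinp1, the same r fell to between 0.494 and 0.944. Among the members, Brinp1 and Brinp2 had an r of 0.949 (rho = 0.881), Brinp2 and Brinp3 one of 0.603 (rho = 0.357) and Brinp1 and Brinp3 one of 0.472 (rho = 0.381), each over 8 libraries. With group means removed these r values were 0.67, 0.568 and 0.28.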

How the data were processed

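RNA of sorted nuclei of GABAergic neurons was measured in 8 libraries, 1 mouse each (PTU, n = 4; PTU+TH, n = 4), with groups taken from the labels. The deposited files hold whole-number counts per gene symbol, 1 file per library, made by the authors. The submitters' processing notes name Bowtie2 2.5.3 and the builds mm10 and GRCm38. The counting tool, the annotation, and whether introns or strand were used are not given in the sources used here. All 55341 symbols matched the GENCODE M21 annotation of GRCm38, from which lengths and positions were taken. Rows that name no gene numbered 0.

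Counts were fitted with edgeR 4.0.16 (R 4.3.3): filterByExpr, TMM scaling and the robust quasi-likelihood test, with Benjamini-Hochberg adjustment over 17355 genes and a call at an adjusted p under 0.05. The SE of a log2 fold change is its size divided by the square root of F. CPM used TMM library sizes, and log2 CPM a prior count of 2. The fit was tested on simulated data. Alternatives were other scalings and filters, DESeq2 1.42.0, limma 3.58.1 (voom), a length trend removed per library, Y-linked counts or mouse set as a covariate, and leaving out each mouse. Alignment of coding sequences used Biopython 1.88, and the permutation test of the long-gene share enumerated 70 arrangements.

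Named genes are the members, overlapping and nearest protein-coding genes, the 5 genes most like each member, and, from each list, the called genes and up to 4 others in list order. The members and the lists were chosen with earlier results of these data known. Depth ran from 21762810 to 29084071 counts per library, and each Brinp gene had at least 3022 counts in every library, so the spread between mice limits the precision.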

Additional observations from a re-analysis of the deposited data

Results flagged for a closer look

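In 3 of 62 sets of 4 libraries examined, 1 library stood apart, its gap to the nearest of the others being above Dixon's 95% critical value as a share of the whole range, where chance would give 3.1. None of the 3 concerns a Brinp gene; all are genes whose levels ran alike with one. Prkcq was at 9.946 CPM in PTU+TH mouse 16, with the other 3 mice between 8.011 and 8.079 CPM. Rab10 was at 83.56 CPM in PTU+TH mouse 16, with the other 3 between 71.09 and 72.87 CPM. Trmt2b was at 18.85 CPM in PTU mouse 11, with the other 3 between 12.68 and 13.33 CPM. Chance flags about 1 in 20 such sets.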

How the results depend on the processing

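The Brinp values are a description here too, since the family was chosen from this contrast. Over 19 alternatives the log2 fold change of Brinp1 lay between 1.01 and 1.15, that of Brinp2 between 0.335 and 0.427, and that of Brinp3 between 0.04 (Y-linked counts as a covariate) and 0.26. For Brinp2 it was 0.39 with upper-quartile scaling, 0.37 with DESeq2, 0.38 with a filter of 1 CPM, 0.36 with the length correction, 0.37 with the mouse set as a covariate and 0.43 without PTU mouse 11, the fits in which its row was on the other side of the threshold, and leaving out each mouse in turn gave 0.34 to 0.43. The count of called genes, 368 in the edgeR fit, was 756 with DESeq2, 700 with the length correction, 642 with the mouse set, 126 with the Y-linked covariate and 58 when only the 6 libraries that had Y-linked counts were fitted, and leaving out each mouse gave 182 (without PTU+TH mouse 15) to 499 (without PTU mouse 9). The share of called genes that were higher, 70.1%, was 82.5% with the Y-linked covariate, 89.7% in those 6 libraries and 80.6% without PTU mouse 10, and 61.4% with DESeq2 and 62.3% with the length correction; the causes were not tested. The difference in long-gene share, 1.34 percentage points, ran from -0.649 (without PTU mouse 9) to 3.18 on leaving out each mouse. Per kb of merged exons instead of gene body, all 3 log2 ratios of levels changed sign, from -0.338 to 0.962 (Brinp1 to Brinp2), 0.644 to -0.255 (Brinp1 to Brinp3) and 0.983 to -1.22 (Brinp2 to Brinp3), since the lengths differ by construction. No paired analysis was possible because no number occurs in both groups.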
